A study of Homo sapiens with 56 samples.

Results

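Gene expression after ibrutinib was compared with gene expression after S63845 in the MINO-P and MINO-VR sublines of the mantle cell lymphoma line MINO. Every library labelled IBR or S63845 in these sublines was taken, which gave 9 of the 56 libraries of the series: 3 of MINO-P IBR, 3 of MINO-VR IBR, 2 of MINO-P S63845 and 1 of MINO-VR S63845. The series profiled cultures of MINO, JEKO-1 and Z138, all mantle cell lymphoma lines, by poly-A RNA sequencing after single drugs and combinations. IBR is read here as ibrutinib, because the series' design text names a BTK inhibitor. Dose, duration and the meaning of P and VR are absent from the labels. All 9 libraries carry the MCL library name, whereas the untreated MINO libraries carry another name (HK), so each value below sets ibrutinib against S63845 and neither against untreated cells.

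Mantle cell lymphoma is a B-cell malignancy driven by cyclin D1 and fed by signals of the B-cell receptor. Bruton tyrosine kinase (BTK) relays that signal through phospholipase C to NF-kB, and ibrutinib blocks BTK by binding it covalently. S63845 acts elsewhere: it occupies the groove of MCL-1, an anti-apoptotic BCL2 family protein, and so frees the proteins that start mitochondrial cell death.

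The libraries did not all stand alike. MINO-P IBR replicates 1 and 2 carried the same library name apart from a final letter, and so did MINO-VR IBR replicates 1 and 2. Each of these suffix pairs was far more alike (chi-square per degree of freedom 8.41 and 8.91) than other libraries of a shared line and treatment (129 to 184), although not within sampling noise. The 4 paired libraries had recovered depths of 7.90 to 10.04 M reads (M, 1e6), against 16.4 and 18.7 M in the third IBR libraries and 16.7 to 21.2 M in S63845. Mitochondrial genes took 14.2 to 17.5% of their reads, against 7.92 and 8.51% in the third IBR libraries and 5.15 to 8.92% in S63845. Small non-coding RNAs took 0.337 to 0.702% of the reads of these 4 libraries, 0.00709 and 0.0530% in the third IBR libraries and 0.00599 to 0.117% in S63845. Averaged over the sublines, the mitochondrial share was 6.46 percentage points higher in IBR (two-sided exact permutation test within sublines, p = 0.075, where 40 arrangements exist and the smallest p is 0.025). Results are therefore given for all 9 libraries, with each suffix pair averaged to 1 library ("pairs averaged"), and with the 4 paired libraries left out ("pairs left out", 2 IBR against 3 S63845). The part of depth and library composition in the results was not tested. Because nothing states that the libraries came from separate cultures, p-values measure the spread between these libraries, which may be technical.

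Marker genes matched the label of a mantle cell lymphoma line. All 10 mantle cell lymphoma and B-cell markers examined reached 1 CPM (counts scaled to a library total of 1e6), with CCND1, which encodes cyclin D1, at 469 to 2956 CPM and SOX11, a transcription factor typical of this lymphoma, at 167 to 461 CPM over the 9 libraries. Among 12 T and NK cell markers, CD3D, CD3G and CD2 were at 0 in all 9 libraries, and the list summed to 30.8 to 67.1 CPM in IBR and 71.6 to 144 CPM in S63845, most of it from TRBC2. Myeloid markers (7 in the table, 5 of which reached 1 CPM in a library) summed to 11.8 to 114 CPM in IBR and 23.4 to 57.0 CPM in S63845. Stromal markers (8 in the table, COL3A1, DCN and CDH5 at 0) summed to 6.59 to 49.7 CPM in IBR and 15.5 to 34.5 CPM in S63845. In bulk RNA, fewer cells of a type and less RNA per cell cannot be told apart.

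Ibrutinib-treated and S63845-treated MINO cells differed widely, mostly through genes that were lower after ibrutinib. Of 13719 genes tested in a model with subline as a term (limma, Benjamini-Hochberg adjusted p under 0.05), 2169 were called (15.8%), 431 higher in IBR (3.14%) and 1738 lower (12.7%). The 6 IBR and 3 S63845 libraries did not overlap within either subline for 1980 of the called genes, and for 24.7% of all genes tested (18.6% lower and 6.1% higher in IBR). The median of all genes was -0.21 on the log2(CPM + 1) scale. Scaling by median-of-ratios size factors moved that median to 0.01 and called 2290 of 13706 genes, 1008 higher (7.35%) and 1282 lower (9.35%), so the excess of lower genes depended in part on the scaling. With mitochondrial genes left out of the totals, 2090 of 13902 were called (15.0%), 578 higher (4.16%) and 1512 lower (10.9%). Pairs averaged, 692 of 13401 genes were called (5.16%; 0.746% higher and 4.42% lower), 691 of them among the 2169. Pairs left out, 214 of 13008 were called (1.65%; 0.223% higher and 1.42% lower), 197 of them among the 2169, while 2011 had an unadjusted p under 0.05. All called genes kept their direction in every alternative in which they were tested.

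The count of calls rested on single libraries. Leaving out the sole MINO-VR S63845 library brought it to 345, and leaving out MINO-P S63845 replicate 2 to 1217. Without MINO-P IBR replicate 1 it was 1260, without replicate 2 it was 1309, without replicate 3 it was 3631, and without MINO-VR IBR replicate 2 it was 1407. Within MINO-P alone (3 against 2) and MINO-VR alone (3 against 1), limma called 0 genes, with 2831 and 2566 at an unadjusted p under 0.05. On all 9 libraries the subline term lets both sublines carry the comparison, and a set of 189 genes was called on all 9 libraries, with pairs averaged and with pairs left out, 170 lower and 19 higher in IBR.

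The largest falls included secreted and innate immune proteins beside replication genes. IL4I1 (chr19:49889654-49929540 on hg38), a secreted amino acid oxidase of activated B cells, stood at 0.558, 0 and 0 CPM in MINO-P IBR and 2.405, 1.29 and 4.76 CPM in MINO-VR IBR, against 59.2 and 9.23 CPM in MINO-P S63845 and 83.5 CPM in MINO-VR S63845. Every IBR library was below every S63845 library of its subline, with a difference of -4.48 ± 0.52 (log2, ± SE; adjusted p = 0.00093; pairs left out -4.31). CCL22, a chemokine that attracts T cells bearing CCR4, stood at 0.112, 0.903 and 0.671 CPM in MINO-P IBR and 3.04, 4.58 and 3.96 CPM in MINO-VR IBR, against 21.4 and 5.996 CPM in MINO-P S63845 and 125 CPM in MINO-VR S63845. The MINO-P S63845 libraries were far apart for CCL22, yet both lay above the MINO-P IBR libraries (log2 -3.68 ± 0.46, adjusted p = 0.0010). MPEG1, the pore-forming protein perforin-2, stood at 0.782, 1.13 and 15.6 CPM in MINO-P IBR and 5.32, 5.47 and 44.1 CPM in MINO-VR IBR, against 53.9 and 136 CPM in MINO-P S63845 and 227 CPM in MINO-VR S63845. Here the third IBR libraries were several-fold above the paired ones, and the difference of -4.36 ± 0.77 became -2.37 with pairs left out (adjusted p = 0.0048 and 0.021). HIVEP3, a zinc finger transcription factor, differed by -4.17 ± 0.56, CARD9, an adaptor of innate receptors, by -3.46 ± 0.38, and TP63, a p53 family transcription factor, by -3.33 ± 0.54. With pairs left out they differed by -3.09, -3.28 and -2.13, each still called. HCP5, a long non-coding RNA gene of the MHC region, differed by -3.64 ± 0.65 and FAM111B, a protease gene, by -4.26 ± 0.37.

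**Figure D1:**
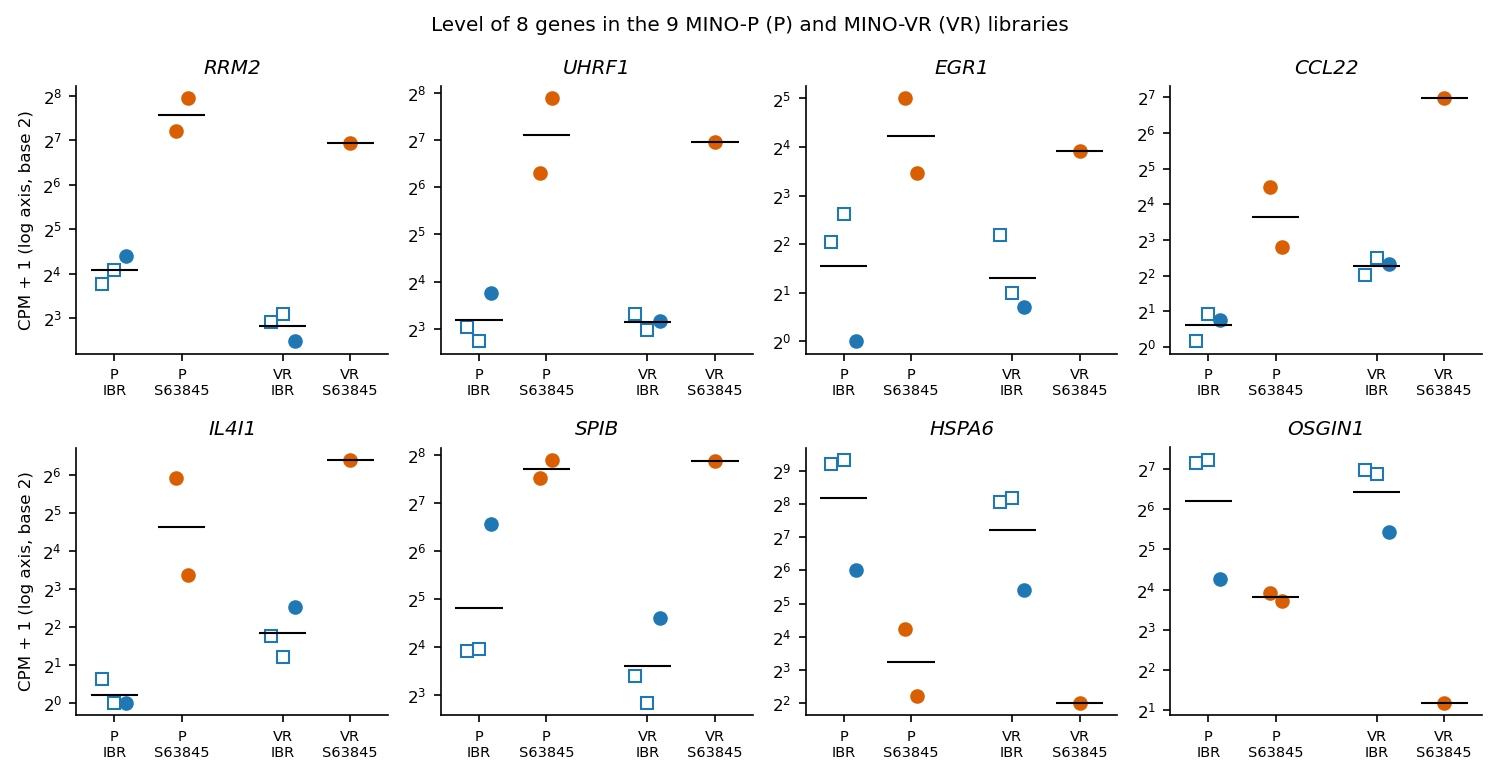
Level of 8 genes in each MINO-P (P) and MINO-VR (VR) library, as CPM + 1 on a base 2 log axis; open squares are the 4 libraries of the IBR suffix pairs, filled circles the other libraries, and bars the mean on the log scale. RRM2, UHRF1, EGR1, CCL22, IL4I1 and SPIB lay lower in IBR than in S63845 within each subline and HSPA6 and OSGIN1 higher, with the third IBR libraries of SPIB, HSPA6 and OSGIN1 nearer to S63845 than the paired ones.

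The largest rises were led by stress genes. HSPA6 (chr1:161524540-161526895 on hg38), a strictly inducible member of the HSP70 chaperone family, stood at 589, 644 and 63.6 CPM in MINO-P IBR and 267, 291 and 41.6 CPM in MINO-VR IBR, against 17.99 and 3.65 CPM in MINO-P S63845 and 3.03 CPM in MINO-VR S63845. It was high in all 6 IBR libraries, and the paired libraries were several-fold above the third one of their subline (log2 5.05 ± 0.80, adjusted p = 0.0029; pairs left out 3.05, adjusted p = 0.036). DUSP26, a dual-specificity phosphatase, stood at 72.8, 67.3 and 37.9 CPM in MINO-P IBR and 66.1, 76.8 and 23.7 CPM in MINO-VR IBR, against 7.397 and 0.66 CPM in MINO-P S63845 and 0.768 CPM in MINO-VR S63845. IBR libraries lay at 23.7 CPM or above and S63845 libraries at 7.40 CPM or below (log2 4.297 ± 0.52, adjusted p = 0.00097; pairs left out 3.56). ABHD4, a lipase of N-acyl phospholipids, stood at 152, 167 and 149.8 CPM in MINO-P IBR and 193, 237 and 184 CPM in MINO-VR IBR, against 53.6 and 24.1 CPM in MINO-P S63845 and 16.9 CPM in MINO-VR S63845. All IBR libraries lay well above the highest S63845 library, at 53.6 CPM (log2 2.63 ± 0.31, adjusted p = 0.00094; pairs left out 2.599). SNHG7, a long non-coding RNA that hosts small nucleolar RNAs, differed by 3.05 ± 0.31 (pairs left out 2.41, adjusted p = 0.012). SYNC, an intermediate filament protein gene, differed by 3.204 ± 0.54 and VPS37D, a subunit of the ESCRT-I sorting complex, by 2.84 ± 0.45.

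**Figure D2:**
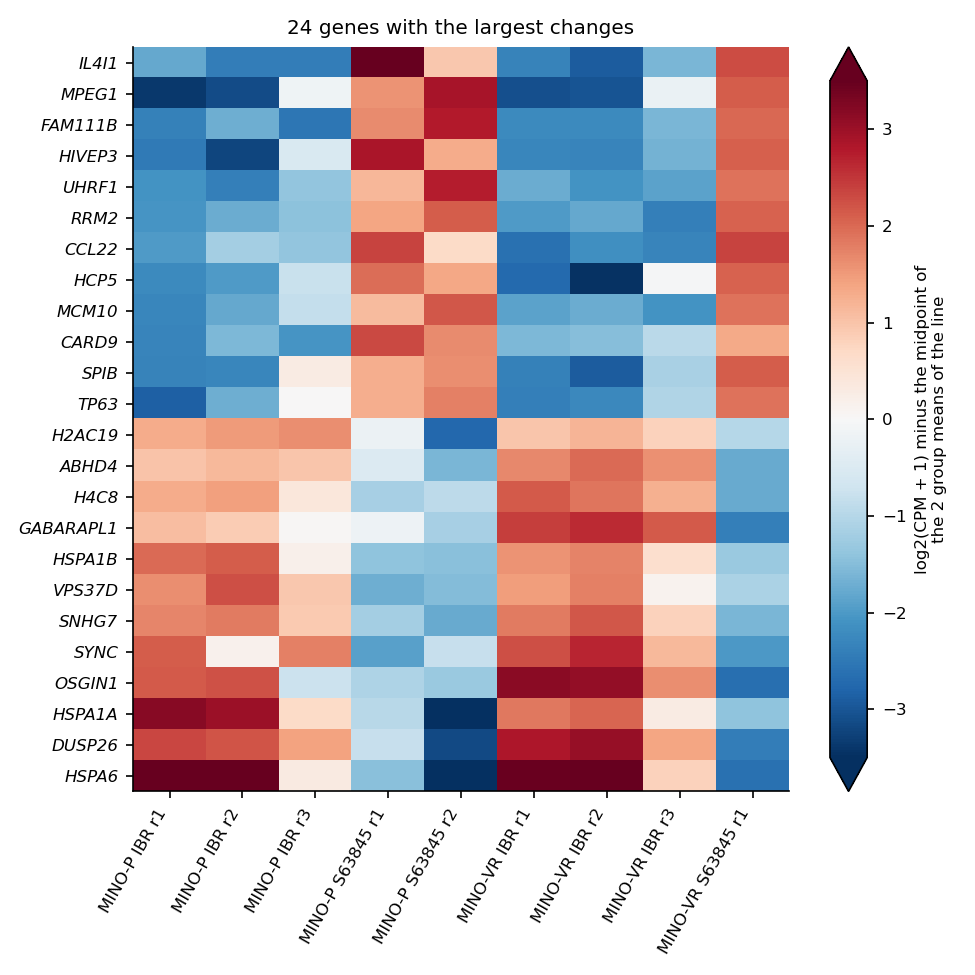
The 12 genes with the largest rise and the 12 with the largest fall among those meeting the naming rule (rows) in the 9 libraries (columns; r is the replicate). Colour is log2(CPM + 1) after subtracting, in each subline, the midpoint of the IBR and S63845 means, and saturates at the ends of the scale; the sign of each gene is the same in both sublines.

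Most NF-kB genes on the list were lower after ibrutinib on all 9 libraries, among them subunits, feedback inhibitors and secreted products. Of 34 NF-kB pathway and target genes tested, 26 were lower in IBR and 0 higher, against 12.7% and 3.14% of all genes, with a list median of -1.39 against -0.21 (16 lower and 0 higher with size factors). Among subunits, NFKB1, the precursor of p50, stood at 33.98 to 95.7 CPM (median 48.02) in the 6 IBR libraries, against 118, 125 and 247 CPM in the 3 S63845 libraries. Its IBR libraries were all below the lowest S63845 library (log2 -1.61 ± 0.32, adjusted p = 0.0073). REL differed by -1.46 ± 0.44 and RELB by -0.80 ± 0.22, whereas RELA, which encodes p65, differed by 0.10 ± 0.17 (adjusted p = 0.71).

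Feedback inhibitors of NF-kB, which are themselves transcribed by it, were lower as well. NFKBIA, the inhibitor that holds NF-kB in the cytoplasm, stood at 44.5 to 76.6 CPM (median 60.9) in the 6 IBR libraries, against 104, 127 and 315 CPM in the 3 S63845 libraries. TNFAIP3, the ubiquitin-editing enzyme A20, stood at 14.2 to 37.5 CPM (median 24.4) in the 6 IBR libraries, against 65.9, 109.7 and 123 CPM in the 3 S63845 libraries. For both genes the groups did not overlap, with differences of -1.55 ± 0.26 (adjusted p = 0.0038) and -2.02 ± 0.31 (adjusted p = 0.0025). BIRC3, an inhibitor of apoptosis that also acts in NF-kB signalling, stood at 5.14, 1.13 and 23.1 CPM in MINO-P IBR and 8.0995, 13.4 and 23.7 CPM in MINO-VR IBR, against 91.4 and 44.6 CPM in MINO-P S63845 and 88.3 CPM in MINO-VR S63845. All IBR libraries were below the S63845 libraries of their subline (log2 -2.999 ± 0.63, adjusted p = 0.0096; pairs left out -1.61, adjusted p = 0.058). TRAF1, an adaptor of TNF receptors, differed by -2.89 ± 0.57, and CD83, an activation marker of B cells, by -2.53 ± 0.39 (pairs left out -2.73).

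The promoters of these feedback genes hold the NF-kB consensus shortly before the start. The windows below, from RefSeq on GRCh38.p14, are the 200 bases just before the annotated start, read 5′ to 3′ on the gene's strand, and were chosen because they hold the NF-kB consensus on either strand, in capitals.
NFKBIA (chr14:35404750-35404949, minus strand): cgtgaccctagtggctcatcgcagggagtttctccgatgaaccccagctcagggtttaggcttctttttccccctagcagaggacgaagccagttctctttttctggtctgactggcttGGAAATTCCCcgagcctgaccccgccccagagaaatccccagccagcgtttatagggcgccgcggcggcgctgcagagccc
TNFAIP3 (chr6:137867059-137867258, plus strand): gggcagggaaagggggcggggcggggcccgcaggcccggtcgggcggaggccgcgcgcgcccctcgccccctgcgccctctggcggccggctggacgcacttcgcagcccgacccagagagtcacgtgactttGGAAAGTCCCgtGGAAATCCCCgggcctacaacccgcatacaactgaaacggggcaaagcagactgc
The motif was found in 8 of the 31 NF-kB list genes with a promoter in the RefSeq table (25.8%), and in 1.92% of all 27305 promoters, each searched from 250 bases before to 50 after the start. A match describes these letters and shows no binding in these cells.

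Secreted factors were among the lowest. Of 22 cytokine and chemokine genes tested, 10 were lower and 1, CXCL16, higher (log2 1.46 ± 0.35), against 12.7% and 3.14% of all genes. The list median was -1.83. CCL3, a chemokine secreted by B cells upon receptor stimulation, stood at 8.93, 13.1 and 1.098 CPM in MINO-P IBR and 3.67, 6.47 and 1.82 CPM in MINO-VR IBR, against 71.6 and 8.45 CPM in MINO-P S63845 and 67.6 CPM in MINO-VR S63845. CCL4, its close relative, stood at 9.05, 7.56 and 2.196 CPM in MINO-P IBR and 0.886, 2.39 and 1.87 CPM in MINO-VR IBR, against 116 and 6.48 CPM in MINO-P S63845 and 63.4 CPM in MINO-VR S63845. For both, MINO-P S63845 replicate 2 was at the level of the paired MINO-P IBR libraries and the other S63845 libraries were well above, with differences of -2.71 ± 0.75 (adjusted p = 0.030) and -3.12 ± 0.78 (adjusted p = 0.021). LTA and LTB, the lymphotoxins, differed by -2.34 ± 0.46 and -2.41 ± 0.45, TNF by -2.24 ± 0.66 and IL10, an inhibitory cytokine of activated B cells, by -2.13 ± 0.66. IL21R, the receptor of interleukin 21, differed by -2.56 ± 0.39 (adjusted p = 0.0025). Chemokine genes of the CCL3 and CCL4 group have near-identical copies, so their read assignment is uncertain. Pairs averaged, 12 of 34 NF-kB genes and 4 of 21 cytokine genes were called lower, and pairs left out 4 of 34 and 3 of 21. Of all genes, 4.42% and 1.42% were lower in these settings. The NF-kB list kept a median of -0.97 with 33 of 34 genes negative when the pairs were left out.

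Immediate early genes, which answer receptor signals within minutes through ERK and calcium, were called at shares near those of all genes on all 9 libraries. Of 28 tested, 5 were lower and 1 higher there, against 12.7% and 3.14% of all genes, with a list median of -0.51. With pairs averaged 3 of 28 were lower and with pairs left out 3 of 28, against 4.42% and 1.42% of all genes. EGR1, the prototype of the group, stood at 3.13, 5.19 and 0 CPM in MINO-P IBR and 3.54, 0.995 and 0.642 CPM in MINO-VR IBR, against 31.1 and 10.01 CPM in MINO-P S63845 and 14.1 CPM in MINO-VR S63845. IBR libraries were lowest in the third libraries, so that the difference of -2.65 ± 0.59 (adjusted p = 0.013) was -3.79 with pairs left out (adjusted p = 0.024). EGR2 stood at 4.91, 1.92 and 0.854 CPM in MINO-P IBR and 1.898, 1.09 and 0.589 CPM in MINO-VR IBR, against 50.3 and 4.497 CPM in MINO-P S63845 and 22.8 CPM in MINO-VR S63845. MINO-P IBR replicate 1 exceeded MINO-P S63845 replicate 2, so EGR2 overlapped (log2 -2.82 ± 0.64, adjusted p = 0.014). EGR3 differed by -3.38 ± 0.85 and NR4A3, an orphan nuclear receptor induced by antigen, by -3.33 ± 0.55. EGR3 was at 0.886 CPM or below in IBR and overlapped too, as MINO-P S63845 replicate 2 (0.66 CPM) lay below MINO-P IBR replicate 2 (0.79 CPM). DUSP1, a phosphatase that ends MAP kinase signals and is also stress-induced, was the gene that was higher, at 16.6 to 52.8 CPM (median 34.97) in the 6 IBR libraries, against 11.8, 12.7 and 14.4 CPM in the 3 S63845 libraries (log2 1.19 ± 0.37, adjusted p = 0.047). With pairs left out DUSP1 differed by 0.36. FOS (log2 1.96 ± 0.75) and ATF3 (log2 1.27 ± 0.91) did not pass the test.

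Of 21 B-cell receptor signalling genes, 5 were lower in IBR and 0 higher, against 12.7% and 3.14% of all genes (median -0.87). Pairs averaged 1 was lower and pairs left out 0, against 4.42% and 1.42% of all genes. The list median with pairs left out was -0.11. BTK itself, the target of ibrutinib, stood at 73.03, 80.6 and 195 CPM in MINO-P IBR and 163, 181 and 245 CPM in MINO-VR IBR, against 181 and 171 CPM in MINO-P S63845 and 354 CPM in MINO-VR S63845. The paired MINO-P IBR libraries were low while the third one exceeded both MINO-P S63845 libraries, and the difference of -0.79 ± 0.29 did not pass (adjusted p = 0.083; pairs left out -0.14). CD79A and CD79B, the signalling chains of the receptor, differed by 0.10 ± 0.18 and -0.35 ± 0.34 (adjusted p = 0.72 and 0.51). Among the lower genes, PIK3AP1, an adaptor to PI3 kinase, differed by -1.48 ± 0.37, and RASGRP3, an activator of RAS, by -1.18 ± 0.32. LYN, the kinase that starts and also limits receptor signalling, differed by -0.87 ± 0.26.

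Of 15 inhibitory receptors and phosphatases of B cells, 7 were lower and 0 higher, against 12.7% and 3.14% of all genes, and all 15 were negative (median -1.02). With pairs averaged 1 was lower and with pairs left out 1 (median -0.94), against 4.42% and 1.42% of all genes. PTPN6, the phosphatase SHP-1, stood at 20.7, 31.8 and 62.3 CPM in MINO-P IBR and 45.2, 44.7 and 119 CPM in MINO-VR IBR, against 245 and 118 CPM in MINO-P S63845 and 452 CPM in MINO-VR S63845. Every IBR library was below the S63845 libraries of its subline (log2 -2.49 ± 0.40, adjusted p = 0.0031; pairs left out -1.64, adjusted p = 0.041). FCRL5, an Fc receptor-like molecule, differed by -2.003 ± 0.44, CD22 by -2.21 ± 0.67 and CD5 by -1.72 ± 0.51. For CD22 and CD5 the third MINO-P IBR library overlapped the MINO-P S63845 libraries, and pairs left out the adjusted p was 0.51 and 0.47.

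Transcription factors of B-cell identity were lower in IBR chiefly in the paired libraries. Of 19 tested, 8 were lower and 0 higher (median -1.26), against 12.7% and 3.14% of all genes. With pairs averaged 1 was called and with pairs left out 1 (median -0.24), against 5.16% and 1.65% of all genes. SPIB, an ETS factor of B cells and the gene called in each of these, stood at 14.1, 14.7 and 92.7 CPM in MINO-P IBR and 9.49, 6.17 and 23.4 CPM in MINO-VR IBR, against 182 and 237 CPM in MINO-P S63845 and 234 CPM in MINO-VR S63845. The third IBR libraries stood above the paired ones and below S63845 (log2 -3.42 ± 0.58, adjusted p = 0.0039; pairs left out -2.06, adjusted p = 0.041). PAX5, which maintains B-cell commitment, stood at 34.5, 31.5 and 123 CPM in MINO-P IBR and 32.02, 21.2 and 115 CPM in MINO-VR IBR, against 181 and 352 CPM in MINO-P S63845 and 224 CPM in MINO-VR S63845. Its groups were separate in both sublines, but the difference of -2.31 ± 0.53 (adjusted p = 0.014) was -0.999 with pairs left out. IKZF3, the lymphoid factor Aiolos, differed by -2.703 ± 0.65 and IKZF1 by -1.78 ± 0.51. BCL6, the germinal centre repressor, differed in the other direction by 0.99 ± 0.40 without passing (adjusted p = 0.11).

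Antigen presentation genes were lower on all 9 libraries, and fewer were called with pairs averaged (3 of 13 MHC class II and 1 of 15 MHC class I genes). Of all genes, 12.7% were lower and 3.14% higher on all 9 libraries, and 4.42% were lower with pairs averaged. Of 13 MHC class II genes, 10 were lower and 0 higher (median -1.37), among them CIITA, the master activator of the class, with -2.12 ± 0.57, and HLA-DMB, a peptide exchange factor, with -2.13 ± 0.40. All 13 remained negative with pairs left out (median -0.65), where 0 were called. Of 15 MHC class I genes, 9 were lower and 0 higher (median -1.06), including NLRC5, their activator, with -1.88 ± 0.51, and 0 were called with pairs left out. HLA genes vary between reads and reference and share sequence, so their counts are uncertain. Among 20 homing and adhesion genes, 7 were lower and 1 higher, and with size factors 4 and 1. Pairs averaged 1 was lower and 0 higher, and pairs left out 0 were called (median -0.43, with 11 negative and 9 positive). The alpha4 integrin gene ITGA4 stood at 16.1, 12.2 and 59.9 CPM in MINO-P IBR and 13.1, 12.7 and 76.8 CPM in MINO-VR IBR, against 135 and 181 CPM in MINO-P S63845 and 126 CPM in MINO-VR S63845, lower in IBR in both sublines (log2 -2.58 ± 0.58; pairs left out -1.09, adjusted p = 0.085). ITGB2 differed by -1.897 ± 0.43 and ITGB7, the partner of alpha4, by -1.87 ± 0.34, while SELPLG, the selectin ligand PSGL-1, was higher by 1.15 ± 0.27.

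Interferon-stimulated genes varied between libraries of 1 drug as well as between drugs. OAS3, a sensor of double-stranded RNA, stood at 7.93, 16.6 and 34.8 CPM in MINO-P IBR and 116, 149 and 351 CPM in MINO-VR IBR, against 774 and 84.6 CPM in MINO-P S63845 and 491 CPM in MINO-VR S63845. MINO-P S63845 replicate 2 was nearer to the MINO-P IBR libraries than to replicate 1. Of 29 such genes, 8 were lower and 0 higher (median -1.64), against 12.7% and 3.14% of all genes. With pairs averaged 3 were lower and with pairs left out 0, against 4.42% and 1.42% of all genes. The median was -1.78 within MINO-P and -0.38 within MINO-VR, a difference between sublines for which no gene passed the interaction test given below.

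Genes of DNA replication formed the list with the most calls. Of 41 tested, 37 were lower in IBR and 0 higher, against 12.7% and 3.14% of all genes, with a median of -1.94. In both sublines 38 had separate groups with IBR lower, against 18.6% of all genes. Pairs averaged 36 were called lower, and pairs left out 25, against 4.42% and 1.42% of all genes. The median with pairs left out was -2.01. These genes, unlike the B-cell factors, were thus as low in the third IBR libraries as in the paired ones. RRM2 (chr2:10120698-10211726 on hg38), the small subunit of ribonucleotide reductase, stood at 12.6, 15.9 and 19.9 CPM in MINO-P IBR and 6.45, 7.47 and 4.55 CPM in MINO-VR IBR, against 146 and 246 CPM in MINO-P S63845 and 122 CPM in MINO-VR S63845. Its IBR libraries reached at most 19.9 CPM and its S63845 libraries at least 122 CPM (log2 -3.74 ± 0.28, adjusted p = 0.00010; pairs left out -3.74, adjusted p = 0.011). UHRF1, which guides methylation of newly copied DNA, stood at 7.23, 5.68 and 12.6 CPM in MINO-P IBR and 8.99, 6.84 and 8.05 CPM in MINO-VR IBR, against 78.2 and 235 CPM in MINO-P S63845 and 123 CPM in MINO-VR S63845. MCM4, a subunit of the replicative helicase, stood at 26.7, 27.9 and 45.3 CPM in MINO-P IBR and 33.8, 31.4 and 36.4 CPM in MINO-VR IBR, against 213 and 301 CPM in MINO-P S63845 and 329 CPM in MINO-VR S63845. Neither gene overlapped between drugs, with differences of -3.87 ± 0.35 (adjusted p = 0.00031) and -3.05 ± 0.22 (adjusted p = 0.00010).

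All members of the helicase were lower: MCM2 by -1.94 ± 0.20, MCM3 by -1.86 ± 0.21, MCM5 by -2.14 ± 0.20, MCM6 by -2.2004 ± 0.20 and MCM7 by -1.83 ± 0.26. So were its loaders and partners CDC6 (-2.05 ± 0.29), CDC45 (-2.58 ± 0.33), MCM10 (-3.48 ± 0.39) and the 4 GINS genes, from -2.796 for GINS4 to -1.74 for GINS3. E2F1, a transcription factor that drives this gene set, stood at 12.8 to 22.4 CPM (median 15.1) in the 6 IBR libraries, against 56.6, 108 and 123 CPM in the 3 S63845 libraries, without overlap (log2 -2.48 ± 0.29, adjusted p = 0.00093). The 4 members that did not pass were POLE2 (-1.36 ± 0.47), RFC4 (-0.95 ± 0.31), CDT1 (-0.79 ± 0.42) and RPA2 (-0.19 ± 0.18).

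Promoters of E2F1 and MCM7 show the E2F motif close to the start. As above, the windows are the 200 bases before the RefSeq start on GRCh38.p14, 5′ to 3′ on the gene's strand, chosen because they hold TTTCGCGC or TTTGGCGC on either strand, in capitals.
E2F1 (chr20:33686386-33686585, minus strand): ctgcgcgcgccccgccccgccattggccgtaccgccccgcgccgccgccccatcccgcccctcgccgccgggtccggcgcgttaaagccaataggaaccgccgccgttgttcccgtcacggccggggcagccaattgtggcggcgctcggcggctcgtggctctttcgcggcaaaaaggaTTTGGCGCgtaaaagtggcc
MCM7 (chr7:100101398-100101597, minus strand): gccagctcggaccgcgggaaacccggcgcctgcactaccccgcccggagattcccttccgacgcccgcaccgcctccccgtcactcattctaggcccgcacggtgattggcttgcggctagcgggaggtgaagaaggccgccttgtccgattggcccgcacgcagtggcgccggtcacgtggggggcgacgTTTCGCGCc
Of 35 replication genes with a promoter in the table, 12 held the motif (34.3%), and of all 27305 promoters 1.18%, in the full windows.

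Mitotic genes were lower too. Of 33 tested, 27 were lower and 0 higher (median -1.58), against 12.7% and 3.14% of all genes, and all 33 were negative. MKI67, the proliferation antigen Ki-67, stood at 29.1, 25.1 and 71.2 CPM in MINO-P IBR and 30.4, 30.2 and 48.7 CPM in MINO-VR IBR, against 274 and 679 CPM in MINO-P S63845 and 188 CPM in MINO-VR S63845. IBR libraries reached at most 71.2 CPM, while the S63845 libraries were themselves far apart (log2 -3.06 ± 0.39, adjusted p = 0.0011). BUB1B, a kinase of the spindle checkpoint, differed by -2.47 ± 0.32 and KIF23, a kinesin of the midbody, by -2.601 ± 0.38. Pairs averaged 21 of 33 were called lower, and pairs left out 9 (median -1.54), against 4.42% and 1.42% of all genes. Among 15 G1 regulators, 5 were lower and 0 higher, including E2F8 (-3.11 ± 0.55), RBL1 (-1.63 ± 0.30) and CDK4 (-0.65 ± 0.16). With pairs averaged 3 were lower, against 4.42% of all genes. With pairs left out 1 was lower and 1 higher, against 1.42% and 0.223% of all genes. CDKN1A, the p21 inhibitor of cyclin kinases and a p53 target, was among the lower genes at 65.3, 68.6 and 65.6 CPM in MINO-P IBR and 56.6, 48.1 and 69.6 CPM in MINO-VR IBR, against 158 and 248 CPM in MINO-P S63845 and 203 CPM in MINO-VR S63845 (log2 -1.65 ± 0.20, adjusted p = 0.00097; pairs left out -1.56). CCND1 differed by -1.38 ± 0.51 and did not pass (adjusted p = 0.086; pairs left out -0.22). Of 24 p53 targets, 3 were lower, AEN, CDKN1A and MDM2, and 1 higher, CCNG1, shares near those of all genes (12.7% and 3.14%), with a median of -0.14; size factors turned the median to 0.09 and made 4 higher.

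Most genes of the MYC and ribosome assembly list were lower after ibrutinib on all 9 libraries. Of 32 tested, 27 were lower and 0 higher (median -1.52), against 12.7% and 3.14% of all genes, and all 32 were negative. Pairs averaged 21 were called lower, and pairs left out 8 (median -1.12), against 4.42% and 1.42% of all genes. MYC itself stood at 67.1 to 556 CPM (median 97.9) in the 6 IBR libraries, against 400.3, 502 and 658 CPM in the 3 S63845 libraries. Its highest IBR library, the third one of MINO-P, overlapped S63845, and MYC was called on all 9 libraries (log2 -1.92 ± 0.53, adjusted p = 0.030) but neither with pairs averaged (adjusted p = 0.13) nor with pairs left out (-0.76). RRP12, a ribosome export factor, stood at 13.8, 10.6 and 35.4 CPM in MINO-P IBR and 14.6, 15.03 and 27.2 CPM in MINO-VR IBR, against 106 and 85.4 CPM in MINO-P S63845 and 119.8 CPM in MINO-VR S63845. NME1, a nucleoside diphosphate kinase, stood at 36.3, 35.3 and 57.1 CPM in MINO-P IBR and 28.5, 29.1 and 21.9 CPM in MINO-VR IBR, against 134 and 113 CPM in MINO-P S63845 and 235 CPM in MINO-VR S63845. Both had separate groups in each subline (log2 -2.49 ± 0.35 and -2.14 ± 0.31, adjusted p = 0.0018 and 0.0019). CAD, which starts pyrimidine synthesis, differed by -1.83 ± 0.28 and NCL, the nucleolar protein nucleolin, by -1.297 ± 0.21. NPM1 (-0.11 ± 0.19) and FBL (-0.23 ± 0.23), abundant nucleolar proteins, were among the 5 that did not pass.

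Metabolic genes that serve growth were lower in part. Of 31 glycolysis and hypoxia genes, 11 were lower and 2 higher (median -0.68), against 12.7% and 3.14% of all genes. With size factors 6 were lower and 4 higher, against 9.35% and 7.35% of all genes. Pairs averaged 3 were lower and 0 higher, and pairs left out 2 and 0. Of all genes, 4.42% were lower and 0.746% higher with pairs averaged, and 1.42% and 0.223% with pairs left out. LDHA, which makes lactate, stood at 139, 144 and 177 CPM in MINO-P IBR and 187, 205 and 146 CPM in MINO-VR IBR, against 747 and 434 CPM in MINO-P S63845 and 776 CPM in MINO-VR S63845. HK2, the inducible hexokinase, stood at 18.2, 15.7 and 66.4 CPM in MINO-P IBR and 16.6, 20.8 and 24.997 CPM in MINO-VR IBR, against 199 and 133 CPM in MINO-P S63845 and 123 CPM in MINO-VR S63845. Both were lower in every IBR library than in the S63845 libraries of its subline (log2 -1.98 ± 0.22 and -2.54 ± 0.39, adjusted p = 0.00080 and 0.0025). GAPDH (0.09 ± 0.26) and ALDOA (0.10 ± 0.22) did not pass, and the higher genes were NDRG1 (1.38 ± 0.37) and KDM3A (0.93 ± 0.27), a stress-responsive gene and a histone demethylase gene. Of 34 sterol and fatty acid synthesis genes, 10 were lower and 1 higher (median -0.52), 6 and 0 with pairs averaged and 1 and 1 with pairs left out. FASN, fatty acid synthase, was lower by -1.85 ± 0.34. ABCA1, the cholesterol exporter, was the higher gene (1.57 ± 0.47). TFRC, the transferrin receptor through which dividing cells take up iron, stood at 42.9, 32.8 and 74.7 CPM in MINO-P IBR and 29.6, 30.5 and 77.2 CPM in MINO-VR IBR, against 433 and 246 CPM in MINO-P S63845 and 265 CPM in MINO-VR S63845 (log2 -2.72 ± 0.35, adjusted p = 0.0011; pairs left out -1.97).

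**Figure D3:**
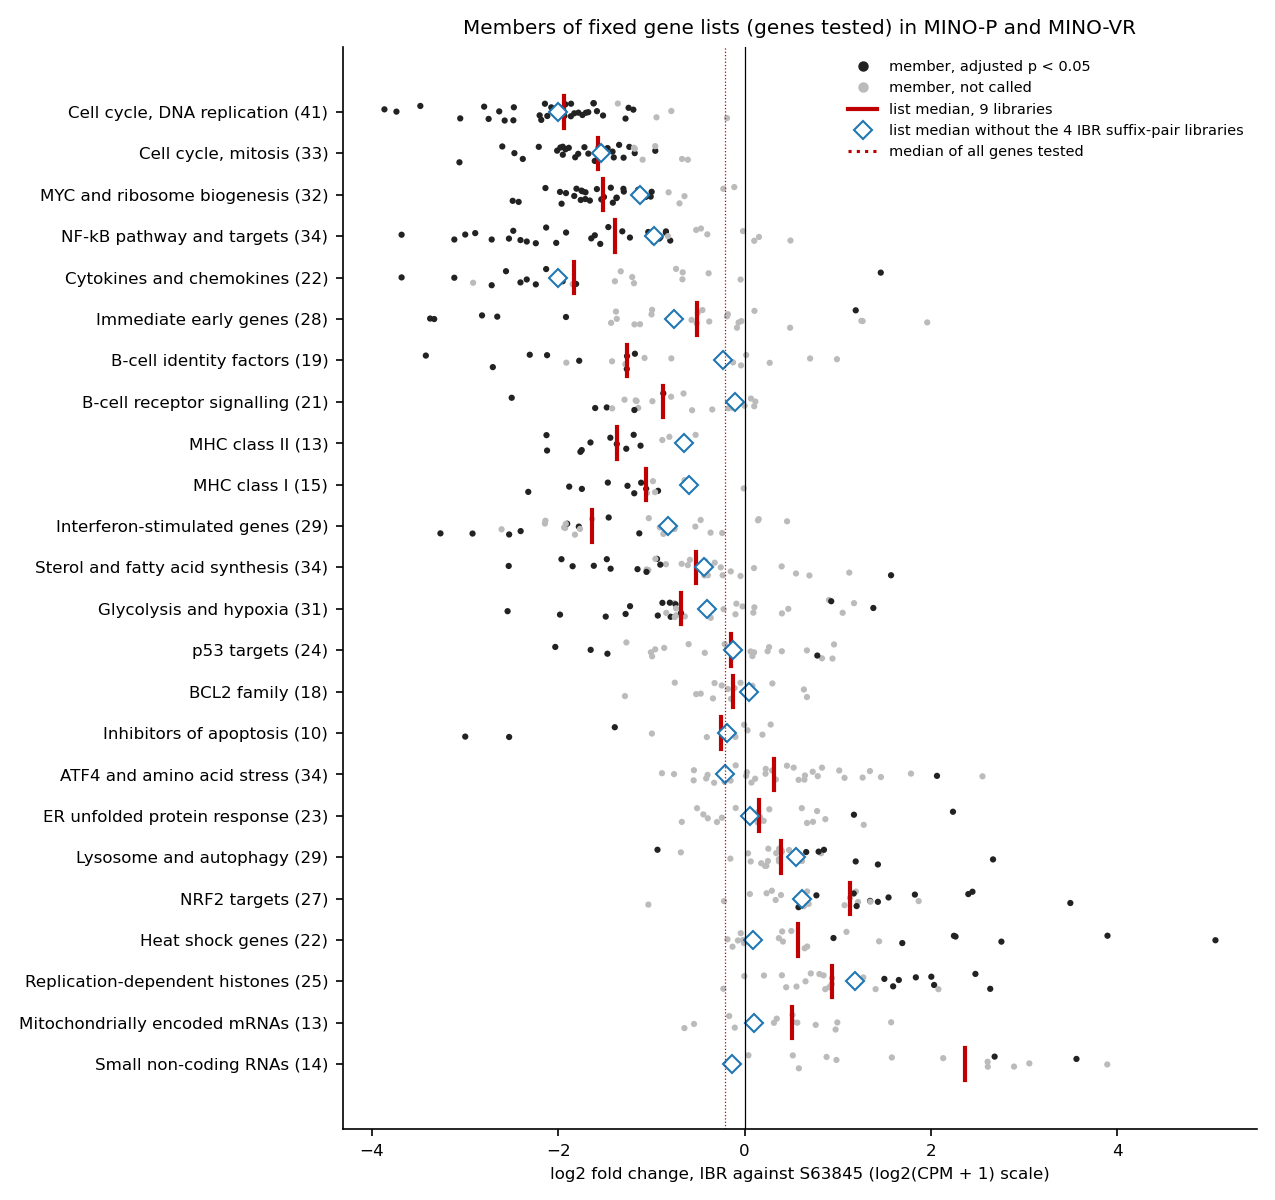
Each dot is 1 tested member of a gene list (rows, with the number tested), placed at its log2 fold change of IBR against S63845 on the log2(CPM + 1) scale; dark dots had an adjusted p under 0.05, red bars are list medians over 9 libraries, blue diamonds list medians with the 4 paired IBR libraries left out, and the dotted line is the median of all genes (-0.21). Replication (median -1.94, diamond -2.01) and mitosis (-1.58, diamond -1.54) kept their place without the paired libraries, whereas B-cell identity (-1.26, diamond -0.24) and small non-coding RNAs (2.37, diamond -0.14) did not.

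The inducible chaperones of the heat shock response were among the genes higher after ibrutinib. Of 22 heat shock genes, 7 were higher and 0 lower (median 0.57), against 3.14% of all genes. HSPA1B, an inducible HSP70, stood at 2185, 2402 and 622 CPM in MINO-P IBR and 1458, 1621 and 727 CPM in MINO-VR IBR, against 207 and 200.4 CPM in MINO-P S63845 and 198 CPM in MINO-VR S63845. All IBR libraries were above all S63845 libraries (log2 2.76 ± 0.41, adjusted p = 0.0023; pairs left out 1.72, adjusted p = 0.020). DNAJB1, an HSP40 partner, stood at 862, 906 and 189 CPM in MINO-P IBR and 775, 793 and 304 CPM in MINO-VR IBR, against 100.4 and 115 CPM in MINO-P S63845 and 122 CPM in MINO-VR S63845, also without overlap within a subline (log2 2.26 ± 0.47, adjusted p = 0.0095; pairs left out 1.03). BAG3, their co-chaperone, differed by 2.25 ± 0.41, DNAJB4 by 1.69 ± 0.32 and DNAJB6 by 0.95 ± 0.22. The constitutive HSPA8 (-0.07 ± 0.27), HSP90AB1 (-0.02 ± 0.26) and HSPD1 (-0.18 ± 0.29) did not pass, nor did the factor HSF1 (-0.13 ± 0.27). HSPA1A is a near-identical copy of HSPA1B, and HSPA6 has a close pseudogene, so the share of reads given to each is uncertain. With pairs left out, 2 of 21 were called higher, HSPA6 and HSPA1B, against 0.223% of all genes, and the list median was 0.09.

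The promoter of HSPA6 holds a heat shock element, the site bound by HSF1. The 200 bases before its RefSeq start on GRCh38.p14 are shown 5′ to 3′ on the gene's strand because they contain the element, in capitals; either phase of its 3 alternating units was searched on both strands.
HSPA6 (chr1:161524340-161524539, plus strand): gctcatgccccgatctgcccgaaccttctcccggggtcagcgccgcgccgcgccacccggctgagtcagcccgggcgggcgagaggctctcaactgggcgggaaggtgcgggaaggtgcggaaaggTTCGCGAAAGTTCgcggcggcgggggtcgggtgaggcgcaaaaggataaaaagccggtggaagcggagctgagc
Of 20 heat shock genes with a promoter in the table, 5 held it in the full window (25.0%), and of all promoters 0.487%.

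Antioxidant genes driven by NRF2, the factor released when KEAP1 senses electrophiles, were higher. Of 27 tested, 11 were higher and 0 lower (median 1.13), against 3.14% and 12.7% of all genes, and 25 were positive. OSGIN1 (chr16:83931311-83966333 on hg38), a stress-responsive growth inhibitor, stood at 141, 149.9 and 18.1 CPM in MINO-P IBR and 124, 117 and 42.4 CPM in MINO-VR IBR, against 14.2 and 12.1 CPM in MINO-P S63845 and 1.26 CPM in MINO-VR S63845. The paired IBR libraries were 117 CPM or above, the third IBR libraries lower, and MINO-P IBR replicate 3 only modestly above the MINO-P S63845 libraries (log2 3.495 ± 0.71, adjusted p = 0.0088; pairs left out 2.08, adjusted p = 0.20). SRXN1, sulfiredoxin, stood at 532, 550.3 and 175 CPM in MINO-P IBR and 495, 531 and 247 CPM in MINO-VR IBR, against 108 and 96.1 CPM in MINO-P S63845 and 37.6 CPM in MINO-VR S63845. MAFG, the DNA-binding partner of NRF2, stood at 413, 455 and 229 CPM in MINO-P IBR and 489, 482 and 352 CPM in MINO-VR IBR, against 178 and 122 CPM in MINO-P S63845 and 63.3 CPM in MINO-VR S63845. Both were higher in every IBR library than in the S63845 libraries of its subline (log2 2.44 ± 0.42 and 1.83 ± 0.33, adjusted p = 0.0042 and 0.0050). GCLM, a subunit of the enzyme that limits glutathione synthesis, differed by 1.54 ± 0.39 and TXNRD1, thioredoxin reductase, by 1.17 ± 0.30. HMOX1, heme oxygenase, stood at 232 to 1249 CPM (median 823) in the 6 IBR libraries, against 56.8, 216 and 465 CPM in the 3 S63845 libraries and did not pass (log2 1.87 ± 0.66, adjusted p = 0.075), and neither did NQO1 (1.19 ± 0.53). Pairs averaged 4 genes were called higher, OSGIN1, SRXN1, PIR and MAFG, against 0.746% of all genes. Pairs left out 0 were called, where 0.223% of all genes were higher, and the list median was 0.62.

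Lysosome and autophagy genes were mostly higher by small amounts. Of 29 tested, 6 were higher and 1 lower (median 0.39), against 3.14% and 12.7% of all genes, and 26 were positive. The counts were 12 and 1 with size factors, 2 and 0 with pairs averaged and 1 and 0 with pairs left out. Of all genes, 7.35%, 0.746% and 0.223% were higher in these settings. GABARAPL1, an ATG8 family protein of the autophagosome, stood at 85.2, 75.6 and 41.3 CPM in MINO-P IBR and 92.5, 105 and 75.5 CPM in MINO-VR IBR, against 35.4 and 17.3 CPM in MINO-P S63845 and 2.303 CPM in MINO-VR S63845. Levels were 41.3 CPM or above in IBR and 35.4 CPM or below in S63845 (log2 2.67 ± 0.57, adjusted p = 0.010; pairs left out 2.35). ULK1, the kinase that starts autophagy, differed by 1.19 ± 0.23 (pairs left out 1.49, adjusted p = 0.048) and TFE3, a factor of lysosome genes, by 0.85 ± 0.19, while its relative TFEB was the lower gene (-0.94 ± 0.20).

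Other stress lists showed little or depended on the paired libraries. Of 34 ATF4 and amino acid stress genes, 1, the transporter subunit SLC3A2, was higher (2.06 ± 0.62) and 0 lower, against 3.14% and 12.7% of all genes. The list median was 0.31. Pairs left out, 0 were higher and 4 lower (SLC1A4, ASNS, PCK2 and PHGDH), against 0.223% and 1.42% of all genes. The list median was -0.21 there, so the direction of this list turned. Of 23 genes of the endoplasmic reticulum stress response, 2 were higher, PPP1R15A (2.24 ± 0.66) and DNAJB9 (1.17 ± 0.35), 7 with size factors and 0 with pairs left out. Of 8 metallothionein and zinc genes, 1, MT2A, was higher (1.33 ± 0.41).

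Replication-dependent histone genes, whose messages normally lack a poly-A tail, were higher while replication enzymes were lower. Of 25 tested, 8 were higher and 0 lower (median 0.94), against 3.14% and 12.7% of all genes. With pairs averaged 7 of 22 were higher and with pairs left out 3 of 15 (median 1.19), against 0.746% and 0.223% of all genes. H2BC12 stood at 139, 127 and 154 CPM in MINO-P IBR and 179, 191 and 208 CPM in MINO-VR IBR, against 36.6 and 29.98 CPM in MINO-P S63845 and 46.6 CPM in MINO-VR S63845. H2BC5 stood at 75.5, 66.6 and 127 CPM in MINO-P IBR and 132, 107 and 204 CPM in MINO-VR IBR, against 22.99 and 28.96 CPM in MINO-P S63845 and 24.6 CPM in MINO-VR S63845. The groups of both were apart and the third IBR libraries were as high as the paired ones (log2 2.03 ± 0.17 and 2.003 ± 0.28; pairs left out 2.16 and 2.58, adjusted p = 0.012 and 0.012). Histone genes are near-identical copies, so single members are uncertain. Small non-coding RNAs, which poly-A enrichment also normally leaves behind, had a median of 2.37 over 14 genes, with RN7SK at 649, 464 and 49.1 CPM in MINO-P IBR and 397, 122 and 9.04 CPM in MINO-VR IBR, against 22.3 and 35.9 CPM in MINO-P S63845 and 2.91 CPM in MINO-VR S63845. This excess stood in the paired libraries: with pairs left out the median was -0.14 over 9 genes and 0 were called.

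The BCL2 family, to which MCL-1 belongs, gave no call on all 9 libraries. Of 18 BCL2 family genes tested, 0 were called by limma on all 9 libraries and with pairs averaged, and 0 of 17 with pairs left out. The median was -0.13 (0.10 with size factors). With the third IBR libraries left out, 2 of 18 were higher and 3 lower, where 1440 and 4134 of 13522 genes were called. MCL1, the target of S63845, stood at 194, 212 and 357 CPM in MINO-P IBR and 221, 225 and 277 CPM in MINO-VR IBR, against 300.2 and 275 CPM in MINO-P S63845 and 289.5 CPM in MINO-VR S63845, with MINO-P IBR replicate 3 the highest of all (log2 -0.25 ± 0.22, adjusted p = 0.45). BCL2 stood at 475, 502 and 618 CPM in MINO-P IBR and 533, 508 and 1063 CPM in MINO-VR IBR, against 864 and 565 CPM in MINO-P S63845 and 779 CPM in MINO-VR S63845, again with the third IBR libraries above the paired ones (log2 -0.34 ± 0.27, adjusted p = 0.40). BCL2L1 differed by -0.32 ± 0.28, the sensitizer PMAIP1 (NOXA) by 0.10 ± 0.38, BBC3 (PUMA) by 0.67 ± 0.31 and BMF by -0.15 ± 0.34, none passing. BIK had the largest difference of the family (-1.28 ± 0.41, adjusted p = 0.051). Among 10 inhibitors of apoptosis and their antagonists, 3 were lower, BIRC3, XAF1 (-2.53 ± 0.77) and BIRC5, against 12.7% of all genes. With pairs averaged 2 were lower and with pairs left out 1, against 4.42% and 1.42% of all genes. XAF1 differed by -3.87 within MINO-P but by -0.37 within MINO-VR. Its groups overlapped there, with MINO-VR IBR replicate 3 at 179 CPM and MINO-VR S63845 at 152 CPM. BIRC5, survivin, which also serves chromosome segregation, stood at 31.4, 25.8 and 18.7 CPM in MINO-P IBR and 29.7, 34.7 and 17.1 CPM in MINO-VR IBR, against 50.5 and 100.3 CPM in MINO-P S63845 and 63.2 CPM in MINO-VR S63845. Each IBR library was below the S63845 libraries of its subline (log2 -1.39 ± 0.30, adjusted p = 0.011; pairs left out -1.85, adjusted p = 0.035). XIAP (-0.10 ± 0.28) and BIRC2 (0.19 ± 0.24) did not pass.

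No gene passed the test of an interaction between subline and drug. Of 13719 genes, limma called 0 for a difference between MINO-P and MINO-VR (0.0%), with 431 at an unadjusted p under 0.05, and 0 under each alternative tried. With no difference, 686 genes would be expected at an unadjusted p under 0.05. The test had 1 S63845 library on the MINO-VR side. List medians were alike for replication (-1.89 in MINO-P and -2.03 in MINO-VR) and further apart for NRF2 targets (0.46 and 1.79). GABARAPL1, of the lysosome and autophagy list, stood at 2.30 CPM in MINO-VR S63845 and at 35.4 and 17.3 CPM in MINO-P S63845, and did not pass (interaction adjusted p = 1.00).

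The same drugs in JEKO-1 and Z138 gave a comparison with no library in common (5 IBR against 3 S63845 libraries, line as a term). There, 68 of 14444 genes were called (0.471%), 23 higher in IBR and 45 lower. Of the 67 also tested in MINO, 51 were called in both in the same direction and 0 in opposite directions. Of the 2115 MINO calls tested there, 1924 had the same sign (91.0%), against 68.7% of all 13100 genes tested in both. JEKO-1 IBR replicates 1 and 2 had depths of 7.09 and 7.73 M reads and mitochondrial shares of 20.9 and 19.9%. JEKO-1 IBR replicate 3 had 15.6 M and 13.5%, and JEKO-1 S63845 had 12.1 M and 17.5%. The mitochondrial share was 8.62 and 5.58% in Z138 IBR and 6.68 and 3.91% in Z138 S63845. The part of depth and library composition in this agreement was not tested. RRM2 stood at 16.6, 13.8 and 67.05 CPM in JEKO-1 IBR and 15.7 and 18 CPM in Z138 IBR, against 194 CPM in JEKO-1 S63845 and 314 and 316 CPM in Z138 S63845. JEKO-1 IBR replicate 3 was the highest of the IBR libraries and still below all of S63845 (log2 -3.62, adjusted p = 0.020). ABHD4 stood at 169, 188 and 165 CPM in JEKO-1 IBR and 325 and 137 CPM in Z138 IBR, against 33.7 CPM in JEKO-1 S63845 and 15.9 and 20.7 CPM in Z138 S63845, higher in IBR in both lines (log2 2.98, adjusted p = 0.0075). OSGIN1 stood at 22.01, 15.9 and 28.6 CPM in JEKO-1 IBR and 82.1 and 52.7 CPM in Z138 IBR, against 0 CPM in JEKO-1 S63845 and 2.49 and 6.11 CPM in Z138 S63845 (log2 4.07, adjusted p = 0.0051), and IL4I1, EGR1, EGR2, PAX5, CD83 and LDHA were among the genes lower in both. BTK differed there by -0.77 and MCL1 by -0.26, neither passing.

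List by list, replication had a median of -1.18 in JEKO-1 and Z138 with 4 of 41 lower, and ribosome assembly -1.19 with 4 of 32 lower. Of all genes there, 0.312% were lower and 0.159% higher. NRF2 targets had a median of 0.86 with 1 of 27, OSGIN1, higher, and NF-kB genes -0.45 with 1 of 28, CD83, lower. Interferon-stimulated genes had a median of 0.17 there, against -1.64 in MINO. HSPA6 was high in 1 S63845 library, at 12.6, 13.6 and 12.1 CPM in JEKO-1 IBR and 526 and 248 CPM in Z138 IBR, against 11.999 CPM in JEKO-1 S63845 and 2.78 and 1042 CPM in Z138 S63845, so Z138 showed no order for it. DUSP26 stood at 32.7, 39.7 and 12.04 CPM in JEKO-1 IBR and 1.32 and 0.684 CPM in Z138 IBR, against 4.55 CPM in JEKO-1 S63845 and 0 and 0 CPM in Z138 S63845, higher in JEKO-1 and near 1 CPM or below in Z138. A test of the difference between the MINO sublines and these 2 lines called 0 of 15280 genes (0.0%). At an unadjusted p under 0.05 stood 1524, where 764 would be expected with no difference. The 68 calls rested on few libraries. The Z138 IBR libraries share a name apart from a final A, as do the Z138 S63845 libraries, and these were never averaged. Without Z138 S63845 replicate 1 or 2, 2 and 7 genes were called, and without JEKO-1 IBR replicate 1 or 2, which are also a suffix pair, 4 and 6, all of them among the 68. Without Z138 IBR replicate 1 there were 30 calls, 23 of them among the 68, and without replicate 2 there were 69, 36 of them among the 68. Without JEKO-1 S63845 replicate 1 there were 103 (27 among the 68), and without JEKO-1 IBR replicate 3 there were 222 (67 among the 68).

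**Figure D4:**
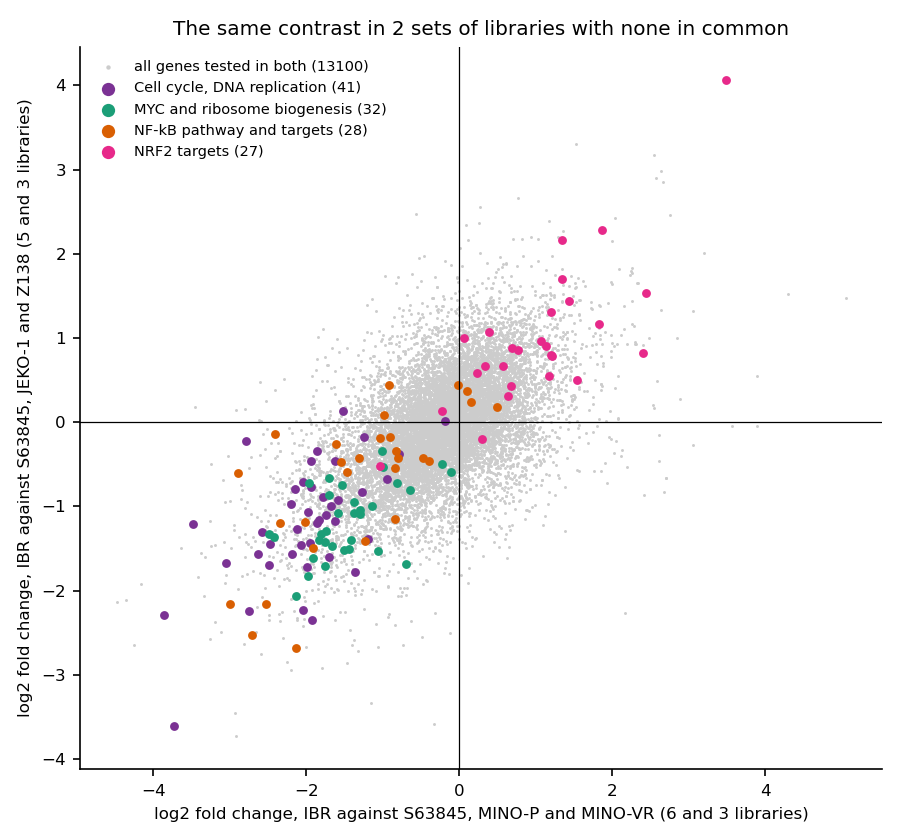
Log2 fold change of IBR against S63845 in JEKO-1 and Z138 (vertical axis, 5 and 3 libraries) against that in MINO-P and MINO-VR (horizontal axis, 6 and 3 libraries), for all 13100 genes tested in both (grey) and 4 gene lists (colours). Replication and ribosome assembly genes lie mainly at the lower left (medians -1.94 and -1.18, and -1.52 and -1.19) and NRF2 targets in the upper right (1.13 and 0.86).

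**Figure D5:**
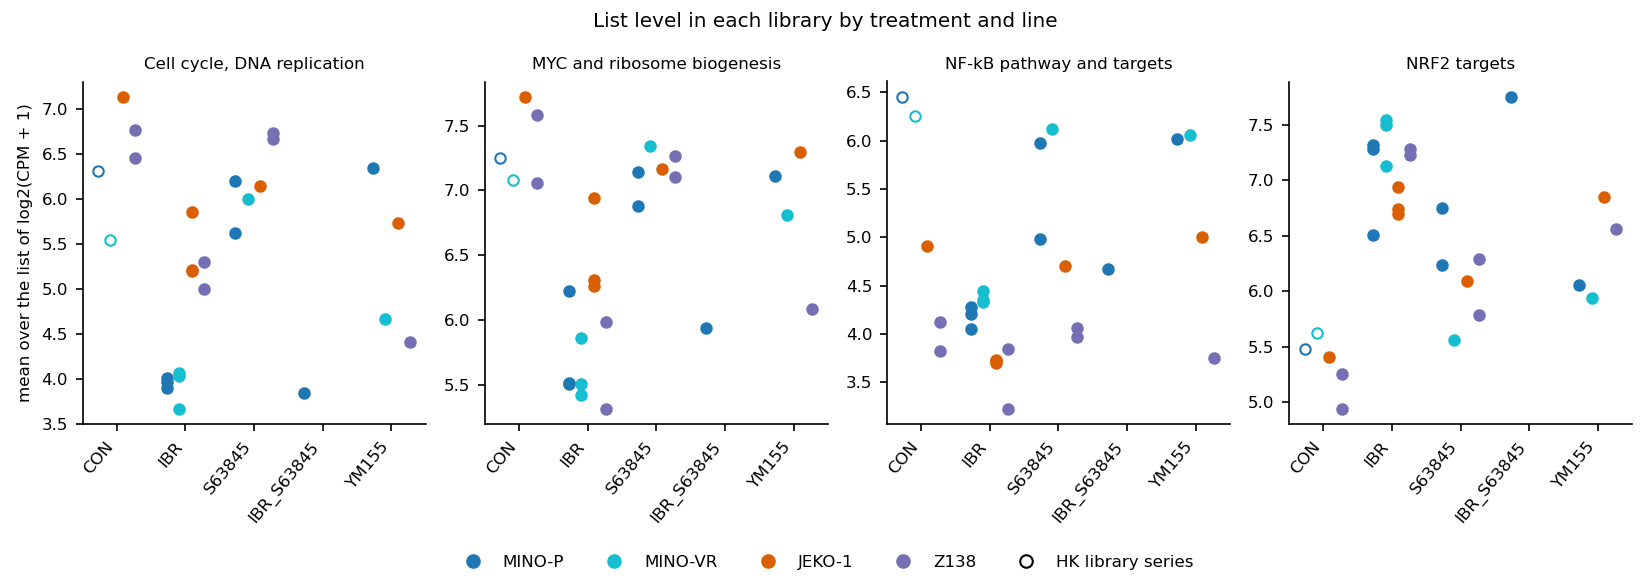
Mean over 4 gene lists of log2(CPM + 1) in each library (dots) by treatment and line; open dots are libraries of the HK series, and the groups hold 1 to 3 libraries of a line. Replication genes stood at 3.67 to 4.07 in the 6 MINO IBR libraries and at 5.63 to 6.21 in the 3 MINO S63845 libraries, and NRF2 targets at 6.51 to 7.54 and 5.56 to 6.75.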

How the data were processed

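Expression came from poly-A RNA-seq (TruSeq RNA v2, per the labels' protocols). The authors' deposited table of 21596 entries held log2 values, log2(CPM + 1) as tested on the file: values converted back summed to 999984 to 1000009 CPM in each library. The submitters' processing notes name Partek and hg38; aligner, counter, annotation, strand use and filters are not given in the sources used here. The sole entry lacking a gene name (up to 0.00077% of reads) was dropped. Steps in low values gave depths of 7.90 to 21.2 M reads (3 reads: 0.141 to 0.380 CPM); 83.5 to 88.7% of low values came out whole, so values were not treated as counts and the count test planned was replaced by its stated fallback. That was limma 3.58.1 (R 4.3.3) with an intensity trend, on genes with at least 1 CPM in 2 libraries of the fit, with subline or line as a term; TMM factors were coded in R. Adjusted p-values are Benjamini-Hochberg over all genes tested, from limma. Fold changes on log2(CPM + 1) understate changes of low genes. Each ± value is limma's moderated standard error, which rests on the spread between the libraries of the fit. Scripts were tested on simulated data.

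Genes were named by rule: the 12 largest rises and 12 largest falls among called genes with a mean of at least 5 CPM and separate groups in both sublines (first those also called with pairs averaged; clone names left out), up to 4 called members of each list by size, BTK and the apoptosis families; other list members were named after their values were seen, and some genes are not reported here. The members and gene lists were chosen with earlier results of these data known. Promoters are from RefSeq's table for GRCh38.p14.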

Additional observations from a re-analysis of the deposited data

How the results depend on the processing

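No paired analysis was possible because the labels give no replicate numbers. The 2169 calls in MINO became 1442 without a filter, 4730 with array weights, 692 with suffix pairs averaged (619 with mitochondrial genes also left out, 623 with size factors), 214 with IBR suffix pairs left out (211 with size factors), 5574 with the third IBR libraries left out, and 0 in MINO-P or MINO-VR alone; leaving out 1 library gave 345 to 3631. The 68 calls in JEKO-1 and Z138 became 0 without a filter (2834 at an unadjusted p under 0.05), 28 on log2(CPM + 0.25), 110 with mitochondrial genes left out, 257 with size factors and 6 with pairs averaged, and 2 to 222 without 1 library. The subline interaction stayed at 0 in all alternatives; the family interaction gave 1 call without a filter and 0 to 5 without 1 library. Without 1 library the mitochondrial difference was 5.56 to 7.80 points (exact permutation p = 0.042 to 0.19), and that of depth -8.40 to -5.65 M reads (p = 0.033 to 0.31). Of 111 named genes called, 64 stayed called with pairs averaged, 38 with pairs left out, 108 with size factors and 41 without MINO-VR S63845 replicate 1, and 0 changed direction. Settings that combine libraries and scaling, interactions with pairs left out, and list counts under alternatives were chosen after seeing the data. Beyond the smaller number of libraries in such fits, the cause of these shifts was not tested. The 4 paired libraries, at 7.90 to 10.04 M reads, limit low genes.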

Other observations

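A single MINO-P library received ibrutinib and S63845 together (IBR_S63845), which allows a description with no replicate. Levels of a list are given here as the mean of log2(CPM + 1) over its members. Replication genes stood at 3.84 in the combination, 3.902, 3.97 and 4.01 in MINO-P IBR and 5.63 and 6.21 in MINO-P S63845. The combination was thus at the level of ibrutinib alone. Mitotic genes stood at 2.71 in the combination, below 3.52, 3.61 and 3.98 in IBR. Ribosome assembly genes stood at 5.94, within the range of 5.51, 5.504 and 6.22 in IBR and below 7.14 and 6.88 in S63845. NF-kB genes stood at 4.67, between 4.05, 4.21 and 4.28 in IBR and 5.98 and 4.99 in S63845. NRF2 targets stood at 7.75, above both 7.28, 7.32 and 6.51 in IBR and 6.75 and 6.23 in S63845. This library had 29.04% mitochondrial reads, the part of which in these levels was not tested. RRM2 stood at 6.99 CPM and HSPA6 at 358 CPM in it, both on the side of ibrutinib, and PMAIP1 at 644 CPM, against 619 and 216 CPM in S63845 and 412, 460.1 and 187 CPM in IBR.

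Untreated MINO libraries belong to the other library series, so drug and series cannot be told apart there. Replication genes stood at 6.32 in untreated MINO-P and 5.55 in untreated MINO-VR, near S63845 rather than IBR. In Z138, where untreated libraries share the MCL series, the list stood at 6.46 and 6.77 untreated, 6.74 and 6.67 in S63845 and 4.9998 and 5.299 in IBR. RRM2 in Z138 stood at 174 and 232 CPM untreated, 314 and 316 CPM in S63845 and 15.7 and 18 CPM in IBR. The untreated JEKO-1 library is of the MCL series too, and there S63845 was below untreated for RRM2, UHRF1 and MCM4. RRM2 in JEKO-1 stood at 430 CPM untreated, 194 CPM in S63845 and 16.6, 13.8 and 67.05 CPM in IBR. UHRF1 stood at 383, 104.5 and 48.8, 58.6 and 97.7 CPM in the same order. MCM4 stood at 387, 172 and 52.9, 51.7 and 182 CPM, with JEKO-1 IBR replicate 3 above S63845. NRF2 targets in Z138 stood at 5.25 and 4.94 untreated, 5.78 and 6.29 in S63845 and 7.28 and 7.23 in IBR, so both drugs were above the untreated level. In JEKO-1, NF-kB genes stood at 4.91 untreated, 4.71 in S63845 and 3.72, 3.697 and 3.73 in IBR.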
